A study of Mus musculus with 189 samples.

Results

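The genes described here are 10 immediate early and AP-1 genes, Fos, Fosb, Jun, Junb, Jund, Atf3, Egr1, Nr4a1, Ier2 and Dusp1, followed cell by cell through late mast cell differentiation. They were taken by gene symbol from a table of 46078 gene rows, and all 10 had a row. Of the 10, 9 had a read in at least 1 of the cells used, and Atf3 had none. Levels are given as CPM, a gene's reads per 1000000 reads on genes in that cell. The question was whether the genes were on together in some cells or spread over all of them, and whether progenitors and mature cells differed in this.

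The study profiled 189 single cells from peritoneal cavities of 4 mice (C57BL/6, female, no treatment named). The first group held 94 mature mast cells, gated on low integrin β7 and high side scatter, and the other held 95 basophil-mast cell progenitors (BMCPs), gated on high integrin β7 and low side scatter. Both gates also required live cells free of lineage markers that carried c-Kit and the IgE receptor FcεRI. No genotype or agent separated the groups, and since the labels do not say which mouse a cell came from, a group counts as 1 pooled sample and no test was made. Intervals below are exact 95% intervals that cover counting error alone. PCR reads without molecular identifiers are not independent molecules, and the spread between mice is not in them.

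Immediate early genes are transcribed within minutes of a stimulus from promoters that are already poised, without new protein synthesis, and their mRNAs are short-lived. FOS and JUN family proteins pair through leucine zippers to form AP-1, which binds DNA and drives later genes. FOS proteins need a JUN partner, whereas JUN proteins can also pair with each other. In mast cells, cross-linking of FcεRI or binding of stem cell factor to c-Kit raises FOS and JUN through MAP kinases, ahead of cytokine transcription. Handling and enzymatic dissociation of tissue are also known to induce these genes.

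Gene reads ranged from 561600 to 2152220 per mature mast cell (median 1255270) and from 344022 to 2091660 per BMCP (median 1247890). A minimum of 100000 gene reads kept all 94 mature mast cells and 93 BMCPs. Both groups carried mast cell mRNAs: Cma1, the chymase, and Cpa3, the granule carboxypeptidase, were at 100 CPM or more in every kept cell. Tpsb2, a tryptase, reached that level in all 94 mature mast cells and in 90 of 93 BMCPs. The granzyme gene Gzmb was at 100 CPM or more in 60 of 93 BMCPs and in 0 of 94 mature mast cells. For the macrophage list the summed level was at most 214 CPM among mature mast cells and 104 CPM among BMCPs, and for the neutrophil list it was at most 1.60 CPM and 0.986 CPM. The B cell list had a median sum of 104 CPM in the mature group and 3.19 CPM in BMCPs. BMCP 46 and BMCP 80 (numbers as in the labels) carried B cell genes, BMCP 44 the T cell gene Lck and BMCP 53 the eosinophil list gene Ccr3 (805 CPM) and the basophil list gene Itga2 (803 CPM). The columns of the table fall into a first run (mature mast cells 1 to 47, BMCPs 1 to 48) and a second run (mature mast cells 48 to 94, BMCPs 49 to 95). The labels name 2 plates but do not tie cells to them, so what the runs are is not known, and values within each run are given beside the results they touch.

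Promoter sequences of Fos, Fosb, Jun and Junb are shown because these were the 4 of the 10 genes whose pooled level was at least 2-fold higher in BMCPs, as it was for 19.2% of all genes with enough reads to compare. Each is the 250 bases upstream of the RefSeq transcription start, 5′ to 3′ on the gene's strand, on build GRCm38.p6. The windows lie at chr12:85473640-85473889 on the plus strand (Fos), chr7:19310046-19310295 on the minus strand (Fosb), chr4:95052223-95052472 on the minus strand (Jun) and chr8:84978749-84978998 on the minus strand (Junb). Capitals mark TGACG (the core of the cAMP response element, which CREB and ATF proteins bind), TATAAA (the TATA box) and CCAAT (bound by NF-Y), on either strand.
Fos: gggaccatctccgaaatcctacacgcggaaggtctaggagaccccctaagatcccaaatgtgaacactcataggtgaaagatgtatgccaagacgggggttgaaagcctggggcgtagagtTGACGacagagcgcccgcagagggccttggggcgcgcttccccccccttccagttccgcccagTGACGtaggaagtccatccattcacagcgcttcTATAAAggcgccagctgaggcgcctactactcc
Fosb: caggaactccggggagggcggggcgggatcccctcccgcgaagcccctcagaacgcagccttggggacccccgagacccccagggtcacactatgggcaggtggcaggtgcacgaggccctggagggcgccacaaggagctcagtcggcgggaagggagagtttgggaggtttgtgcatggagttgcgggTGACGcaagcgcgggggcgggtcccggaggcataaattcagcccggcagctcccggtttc
Jun: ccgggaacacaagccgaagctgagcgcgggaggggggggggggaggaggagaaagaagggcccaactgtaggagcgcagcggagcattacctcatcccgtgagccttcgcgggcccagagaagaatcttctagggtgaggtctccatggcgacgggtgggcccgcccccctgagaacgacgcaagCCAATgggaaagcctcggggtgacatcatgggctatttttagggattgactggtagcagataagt
Junb: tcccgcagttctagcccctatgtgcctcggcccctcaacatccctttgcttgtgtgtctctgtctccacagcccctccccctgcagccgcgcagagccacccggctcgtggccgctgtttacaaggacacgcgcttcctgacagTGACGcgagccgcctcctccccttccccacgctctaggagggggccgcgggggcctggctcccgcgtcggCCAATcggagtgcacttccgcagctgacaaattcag
The RefSeq table held 8 of the 10 genes, leaving out Egr1 and Ier2. The Jund window (chr8:70697489-70697738) does not adjoin the Jund start used below (chr8:70698949) and held none of the motifs searched. TGACG lay in the windows of 6 of these 8, and in 17.8% of all 32851 promoter windows of this length. This motif was added to the search after the sequences had been read. The full palindrome TGACGTCA, which contains TGACG on each strand, lay in the Dusp1 window alone, between 143 and 136 bases upstream of the start, and in 1.55% of all windows. TATAAA was found in Fos alone of the 8 (12.4% of all windows), and CCAAT in Jun and Junb (33.8% of all windows). The GC box GGGCGG, not capitalised, lay in 6 of the 8 windows (32.7% of all windows), and the AP-1 site TGANTCA (6.75% of all windows) and the CArG box (1.47%), each searched on both strands, lay in none of the 8. Patterns were searched as written and only in these windows. Longer letters such as tgacatca in the Jun window, or sites further upstream, were not counted. Some matches overlapped: Fosb held a pair of overlapping GC boxes, and in Dusp1 the palindrome overlapped both of its TGACG cores. A match describes the letters of these windows and was not tested as a binding site.

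Transcripts of each gene were concentrated in a minority or a bare majority of cells, with little in between. A gene is called on in a cell at 100 CPM or more. For Jun in BMCPs, 17 cells had 0 reads, 21 had reads under 10 CPM, 3 lay between 10 and 100 CPM and 52 were on. On cells held 99.5% of the Jun reads of BMCPs and 96.5% of those of mature mast cells. For Fos, Junb, Egr1, Ier2 and Dusp1 the on cells held between 92.7% (Junb in mature mast cells) and 99.2% (Ier2 in BMCPs) of the reads. Fosb and Jund were exceptions. For Fosb the on cells held 49.1% of the reads of mature mast cells, of which 6 lay between 10 and 100 CPM, and 84.5% of those of BMCPs. For Jund, 25 mature mast cells and 17 BMCPs lay between 10 and 100 CPM, and on cells held 46.1% and 35.3% of its reads. Values under 10 CPM are read with care here, since Gzmb, with a median of 3872 CPM in BMCPs, was also read in mature mast cells, from 0 to 15.9 CPM (median 3.28 CPM), without reaching 100 CPM in any. Whether such low reads came from the cell itself was not tested.

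**Figure D1:**
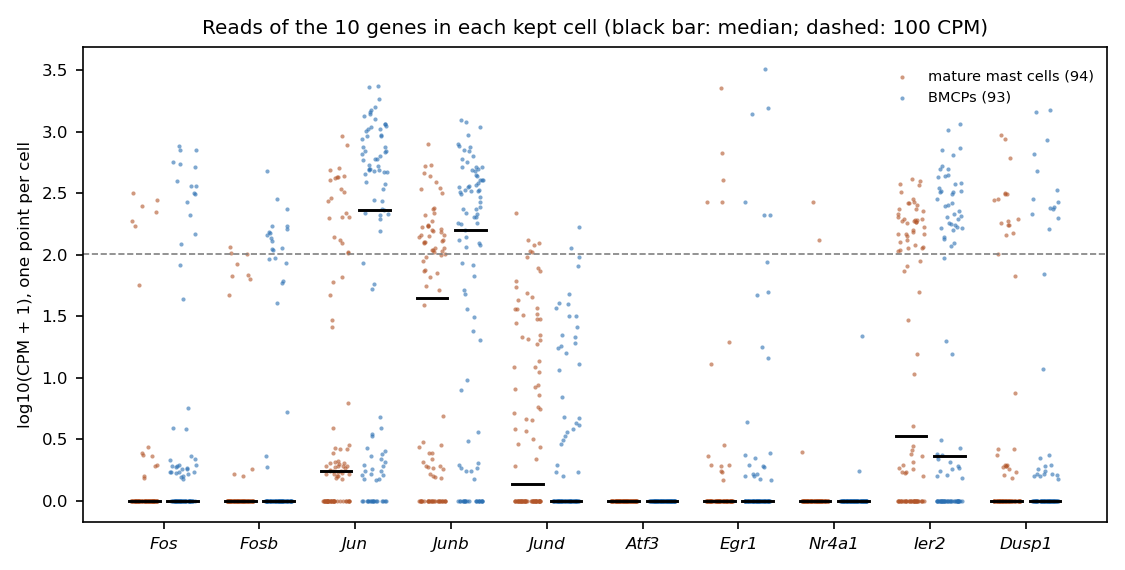
CPM of the 10 genes in every kept cell, on a log10(CPM + 1) axis, for mature mast cells (orange, 94) and BMCPs (blue, 93). Each point is a cell, black bars are medians and the dashed line is 100 CPM. For most genes points gather at 0 to 10 CPM and above 100 CPM, but Jund has more points between these than above. Jun and Junb have medians above the line in BMCPs, and the Jun median is near 0 in mature mast cells.

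Fos and Fosb, the FOS family members, were off in most cells of both groups. Fos (ENSMUSG00000021250, chr12:85473890-85477273, plus strand, 4 exons in its longest transcript) ranged from 0 to 320 CPM in mature mast cells and from 0 to 763 CPM in BMCPs, with a median of 0 CPM in each. It was on in 6 of 94 mature mast cells (6.38%, 2.38 to 13.4) and 15 of 93 BMCPs (16.1%, 9.32 to 25.2), so that the intervals overlapped. Pooled over cells, Fos stood at 14.5 CPM (13.8 to 15.2) in mature mast cells and 77.3 CPM (75.7 to 78.9) in BMCPs, a log2 ratio of -2.33 (mature over BMCP, after adding 1 CPM to each).
The size of the Fos difference was not the same in the runs of columns. In the first run it was on in 5 of 47 mature mast cells and 7 of 47 BMCPs, with a log2 ratio of -0.93. In the second run it was on in 1 of 47 and 8 of 46, with a log2 ratio of -4.03. The highest BMCP, number 53, is the cell with Ccr3 and Itga2. Without BMCPs 44, 46, 53 and 80, which carried genes of other cell type lists, the log2 ratio of Fos was -2.14. These were not the only cells with such genes, since Itga2 was on in 8 BMCPs and the B cell gene Cd79b in 6 mature mast cells. No mature mast cell was left out.

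Fosb (ENSMUSG00000003545, chr7:19302696-19310051, minus strand) ranged from 0 to 114 CPM in mature mast cells and from 0 to 482 CPM in BMCPs, again with medians of 0 CPM. On cells numbered 2 of 94 mature mast cells (2.13%, 0.259 to 7.48) and 14 of 93 BMCPs (15.1%, 8.48 to 23.97). These intervals did not overlap, for which no share over all genes was computed, and within each run of columns they did overlap. At 10 CPM or more the shares were 8.51% (3.75 to 16.1) and 21.5% (13.7 to 31.2), and these intervals overlapped. Its pooled level was 7.42 CPM among mature mast cells and 31.3 CPM among BMCPs (log2 ratio -1.94), and the log2 ratio was -3.25 in the first run of columns and -1.55 in the second. The on cells of the groups overlapped in level, since the lowest BMCP on for Fosb was at 108 CPM and the highest mature mast cell at 114 CPM. The pair was on together in 3 BMCPs and in 0 mature mast cells.

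Jun was the member with the highest pooled level in BMCPs. Jun (ENSMUSG00000052684, chr4:95049034-95052222, minus strand, 1 exon) ranged from 0 to 930 CPM in mature mast cells (median 0.753 CPM) and from 0 to 2364 CPM in BMCPs (median 229 CPM). It was at 1000 CPM or more in 16 BMCPs and in 0 mature mast cells, while 17 BMCPs had no Jun read, so the groups overlapped at the low end. Jun was on in 22 of 94 mature mast cells (23.4%, 15.3 to 33.3) and 52 of 93 BMCPs (55.9%, 45.2 to 66.2), and the intervals did not overlap. They overlapped in the first run of columns (12.3 to 38.03 and 32.1 to 61.9) and did not in the second (12.3 to 38.03 and 49.8 to 78.6). How many of all genes had intervals that did not overlap was not computed, so for Jun and Fosb no background stands beside this. Both the share of on cells (2.39 times) and the median level in on cells (649 against 305 CPM, 2.13 times) were higher in BMCPs. The pooled level was 86.3 CPM (84.6 to 87.96) against 465 CPM (461 to 469), a log2 ratio of -2.42, and it was -2.53 in the first run of columns and -2.33 in the second.

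Junb, which forms AP-1 complexes of weaker transactivation on many targets, was on in more mature mast cells than Jun. Junb (ENSMUSG00000052837, chr8:84974484-84978718, minus strand) ranged from 0 to 793 CPM in mature mast cells (median 44.3 CPM) and from 0 to 1239 CPM in BMCPs (median 157 CPM). It was on in 38 of 94 mature mast cells (40.4%, 30.4 to 51.05) and 52 of 93 BMCPs (55.9%, 45.2 to 66.2), with overlapping intervals. The median level in on cells was 159 CPM among mature mast cells and 359 CPM among BMCPs, so that level in on cells (2.25 times) differed more than their share (1.38 times). Its pooled log2 ratio was -1.31, with -1.79 in the first run of columns and -0.98 in the second.
Jund, the JUN family member that is usually expressed without a stimulus, was low in both groups. Jund (ENSMUSG00000071076, chr8:70698949-70700616, plus strand, 1 exon) ranged from 0 to 218 CPM in mature mast cells (median 0.455 CPM) and from 0 to 167 CPM in BMCPs (median 0 CPM), and was on in 6 and 2 cells. Its pooled level was 20.9 CPM among mature mast cells and 9.71 CPM among BMCPs, a log2 ratio of 1.04. These values came almost wholly from the second run of columns, where Jund stood at 37.2 CPM among mature mast cells and 17.2 CPM among BMCPs, against 2.40 and 2.09 CPM in the first run, where it was on in 0 of 47 cells of each group. What sets the runs apart was not tested.

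Overlapping genes make some of these counts uncertain, because the sources used here do not say whether counting used the strand. Jund shares 877 of its 1668 exonic bases with the antisense gene Gm11175, which had 0 reads in both groups. Jun shares 232 exonic bases with antisense Junos (21 reads in the mature group, 0 in BMCPs). Junb shares 173 with Prdx2, a peroxiredoxin gene (15544 and 18689 reads), and Dusp1 shares 11 with Ergic1. Reads in those stretches cannot be assigned to a strand from the table.

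Atf3, a stress-induced partner of AP-1 proteins, had 0 reads in both groups. A count of 0 allows up to 3 reads, which is 0.0252 CPM of the 118831096 pooled gene reads of mature mast cells and 0.0251 CPM of the 119524686 of BMCPs. On cells were 0 of 94 and 0 of 93. With 3 cells taken as the limit of a count of 0, these allow shares of up to 3.19% and 3.23%, and the exact intervals reach 3.85% and 3.89%.

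Egr1, a zinc finger factor induced through serum response factor, was held by very few cells. It ranged from 0 to 2286 CPM in mature mast cells and from 0 to 3260 CPM in BMCPs (medians 0 CPM), the highest single-cell level of any of the 10 genes. On cells numbered 5 of 94 mature mast cells (5.32%, 1.75 to 11.98) and 6 of 93 BMCPs (6.45%, 2.40 to 13.5). Mature mast cell 82 held 40.3% of the Egr1 reads of its group, and BMCP 69 held 39.8%. The pooled level was 35.8 CPM among mature mast cells and 71.5 CPM among BMCPs (log2 ratio -0.98). In the first run of columns it was 0.0360 and 43.97 CPM and in the second 67.3 and 98.6 CPM, with log2 ratios of -5.44 and -0.54. All 5 mature mast cells and 5 of the 6 BMCPs with Egr1 on were in the second run.

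Nr4a1, an orphan nuclear receptor gene that also responds to antigen receptor signals, was nearly absent. It ranged from 0 to 269 CPM in mature mast cells and from 0 to 20.7 CPM in BMCPs (medians 0 CPM), with reads in 3 and 2 cells. It was on in 2 mature mast cells and 0 BMCPs. The pooled level was 3.87 CPM against 0.276 CPM (460 against 33 reads), a log2 ratio of 1.93, but 1 mature mast cell held 71.1% of those reads and 1 BMCP 97.0%. Without the cell with most reads in each group the log2 ratio was 1.08.

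Ier2, a nuclear protein gene of the immediate early class, was on in nearly equal shares of both groups. Ier2 (ENSMUSG00000053560, chr8:84661331-84662852, minus strand, 1 exon) ranged from 0 to 413 CPM in mature mast cells (median 2.42 CPM) and from 0 to 1160 CPM in BMCPs (median 1.30 CPM). It was on in 39 of 94 mature mast cells (41.5%, 31.4 to 52.1) and 39 of 93 BMCPs (41.9%, 31.8 to 52.6), and the share was between 40.4% and 42.6% in each run of each group. The median level in on cells was 189 CPM among mature mast cells and 281 CPM among BMCPs, and the pooled log2 ratio was -0.80, with -1.01 in the first run of columns and -0.63 in the second.
Dusp1, a phosphatase that switches off MAP kinases and so feeds back on the pathway, had nearly equal pooled levels in both groups. It ranged from 0 to 947 CPM in mature mast cells and from 0 to 1497 CPM in BMCPs (medians 0 CPM), and was on in 15 of 94 (15.96%, 9.22 to 24.95) and 14 of 93 (15.1%, 8.48 to 23.97). The pooled level was 59.6 CPM (58.2 to 60.97) in mature mast cells and 62.8 CPM (61.3 to 64.2) in BMCPs, a log2 ratio of -0.07. This value turned sign between the runs of columns, at 0.95 in the first and -0.69 in the second, and was positive under each other scaling of the pooled profiles, up to 0.83 with ERCC spike-in reads as the size of a group.

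Across the 10 genes, 4 had a log2 ratio of -1 or lower (Fos, Fosb, Jun and Junb), and 19.2% of the 10556 genes that reached 5 CPM in at least 1 group did. A log2 ratio of 1 or higher was found for 2 (Jund and Nr4a1), against 9.9% of those genes, and Nr4a1 was under 5 CPM in both groups. The 5 CPM minimum was met by 8 of the 10 genes. Over the 9 with reads the median log2 ratio was -0.98, beside -0.25 over the 10556 genes. Without BMCPs 44, 46, 53 and 80 the log2 ratio was -2.01 for Fosb, -1.05 for Egr1, -0.88 for Ier2 and -0.15 for Dusp1, so that 5 of the 10 genes were at -1 or lower. Other scalings moved the median of all genes by 0.21 to 0.92 on the log2 scale. The reads of the 10 genes were 0.0416% of all gene reads in the mature group and 0.112% in BMCPs, and Jun and Junb together were 44.6% and 63.6% of them. Pooled sums do not separate fewer on cells from less RNA per on cell, for which the shares and on-cell levels above stand. With ERCC reads as the size of a group, where gene reads per ERCC read had medians of 939 in the mature group and 562 in BMCPs, Junb was at -0.41 and Ier2 at 0.10, and Fos (-1.46), Fosb (-1.09) and Jun (-1.51) stayed at -1 or lower.
Of the 10 genes, 3 (Jun, Junb and Ier2) were on in at least 20% of the cells of each group. Among the 10556 genes, 26.7% reached that share in mature mast cells and 22.7% in BMCPs, so the 10 genes' share of 3 in 10 was near the background.

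Levels of different genes were compared per kilobase of exon, as pooled CPM per kb. In BMCPs the order was Jun (146), Junb (108), Ier2 (102), Fos (32.9), Dusp1 (18.95), Egr1 (15.9), Jund (5.82), Fosb (5.01) and Nr4a1 (0.0787). Of these neighbours, Dusp1 and Egr1 changed places between the runs of columns (9.54 and 9.81 CPM per kb in the first, 28.2 and 22.0 in the second), and so did Jund and Fosb (1.25 and 3.83, then 10.3 and 6.18). In mature mast cells Ier2 led (58.02), before Junb (43.2), Jun (27.1), Dusp1 (17.99), Jund (12.6), Egr1 (7.99), Fos (6.18), Fosb (1.19) and Nr4a1 (1.10). There Ier2, Junb and Jun kept this order in both runs, while Jund moved from 1.44 to 22.3 CPM per kb and passed Dusp1. Egr1 and Fos changed places (0.00803 and 10.5 CPM per kb in the first run, 14.999 and 2.36 in the second), as did Fosb and Nr4a1 (0.260 and 0.683, then 2.00 and 1.47).

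**Figure D2:**
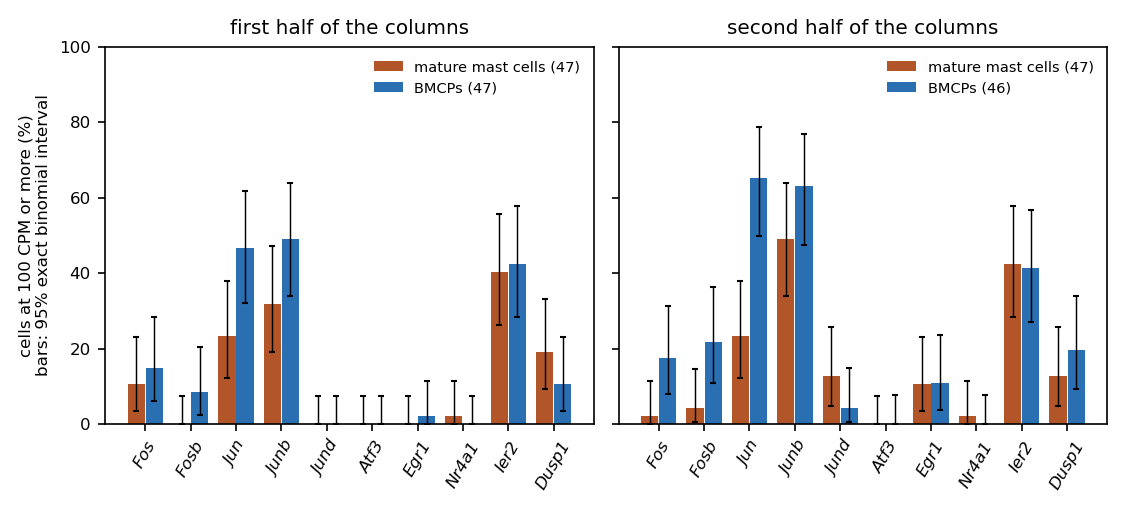
Percentage of cells with each gene at 100 CPM or more, in the first run of columns (left) and the second (right), for mature mast cells (orange) and BMCPs (blue). Error bars are exact 95% binomial intervals that cover counting error alone; the share for Jun was higher in BMCPs in each run (46.8% and 65.2%, against 23.4% in each run of mature mast cells), that for Ier2 was between 40.4% and 42.6%, and Jund and Egr1 reached more than 2.13% of cells in the second run alone.

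The number of the 10 genes on in a cell described how they combined. Mature mast cells had 0 to 4 genes on (19 cells with 0, 34 with 1, 24 with 2, 15 with 3 and 2 with 4), with a mean of 1.44. BMCPs had 0 to 6 on (12 cells with 0, 14 with 1, 36 with 2, 21 with 3, 6 with 4, 3 with 5 and 1 with 6), with a mean of 2.09. These counts pool both runs of columns. Among mature mast cells the median number on was 1 in the first run and 2 in the second, and among BMCPs it was 2 in each run. At least 3 genes were on in 17 of 94 mature mast cells (18.1%, 10.9 to 27.4) and 31 of 93 BMCPs (33.3%, 23.9 to 43.9), with overlapping intervals. At least 5 were on in 0 of 94 mature mast cells, which allows up to 3.19% when 3 cells are taken as the limit of a count of 0, and in 4 of 93 BMCPs (4.30%, 1.18 to 10.6).
The spread of this number was split into each gene's own variance and the covariances between genes. Its variance over mature mast cells was 1.10, of which 8.07% came from covariances between genes and the rest from each gene's own variance. Over BMCPs it was 1.61, of which 24.7% came from covariances. These percentages have no interval and no other set of genes beside them, and they pool both runs of columns. Whether the groups differ in them was not tested. The highest number in any cell was 6 of 10.

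**Figure D3:**
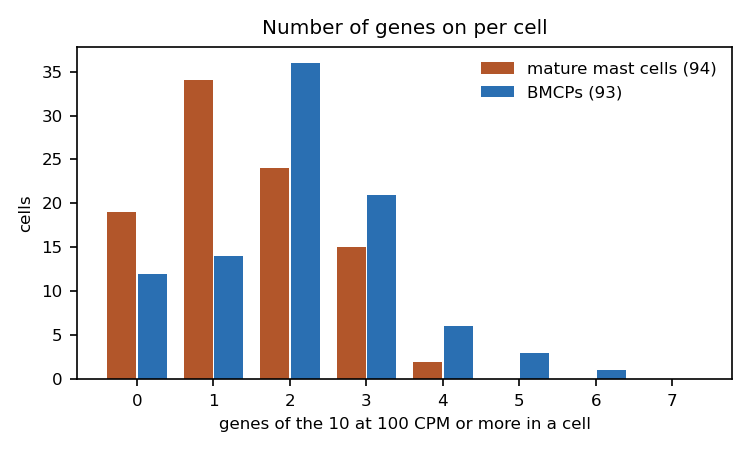
Cells (y axis) by the number of the 10 genes at 100 CPM or more (x axis), for mature mast cells (orange, 94) and BMCPs (blue, 93). Mature mast cells were most often at 1 gene (34 cells) and BMCPs at 2 (36 cells), and only BMCPs (4 cells) reached 5 or 6. Both runs of columns are pooled, and in the second run the median was 2 in both groups.

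Jun, Junb and Ier2 were the genes on most often, and their combinations were counted first. In BMCPs all 3 were on in 13 of 93 cells (13.98%, 7.66 to 22.7) and none of the 3 in 15 cells (16.1%, 9.32 to 25.2). In mature mast cells all 3 were on in 3 of 94 cells (3.19%, 0.663 to 9.04) and none in 25 (26.6%, 18.01 to 36.7). The other 7 genes were all off in 54 BMCPs (58.1%) and 62 mature mast cells (65.96%), and at least 2 of them were on in 10 BMCPs (10.8%, 5.28 to 18.9) and 4 mature mast cells (4.26%, 1.17 to 10.5).
By family, a JUN family gene was on in 71 of 93 BMCPs and 54 of 94 mature mast cells, and a FOS family gene in 26 and 8. Of the 26 BMCPs with a FOS family gene on, 22 also had a JUN family gene on, as did 6 of the 8 mature mast cells. Over all cells, with or without a FOS family gene on, the JUN family share was 76.3% of BMCPs and 57.4% of mature mast cells. JUN family genes were on without a FOS family gene in 49 BMCPs (52.7%, 42.1 to 63.1) and 48 mature mast cells (51.1%, 40.5 to 61.5), with overlapping intervals.

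**Figure D4:**
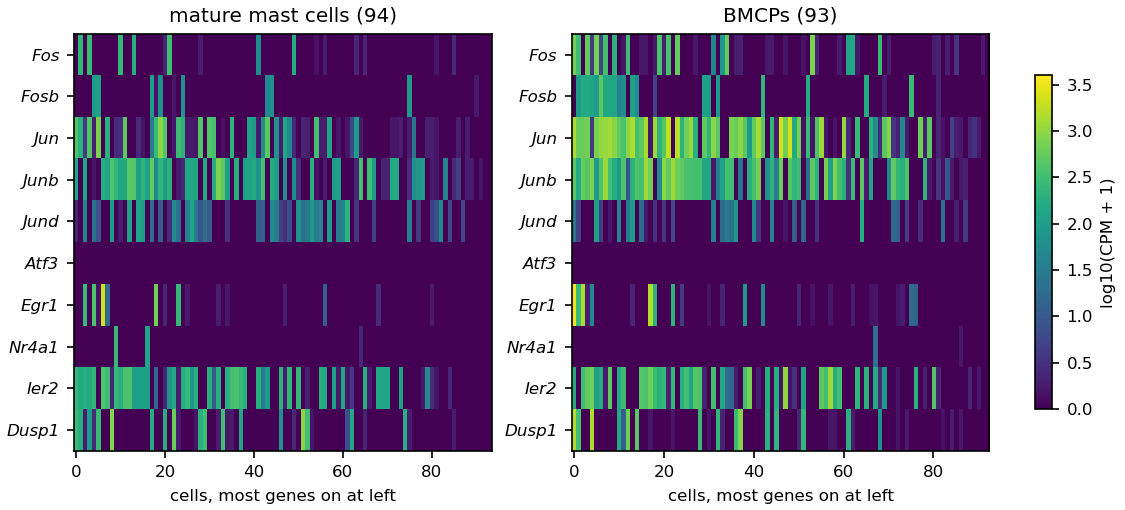
Levels of the 10 genes (rows) in every kept cell (columns), coloured by log10(CPM + 1) from 0 (dark) to 3.6 (yellow), for mature mast cells (left, 94) and BMCPs (right, 93). Cells are ordered from most to fewest genes on, so the slope to the right is set by the ordering; bright blocks of Jun, Junb and Ier2 fall in different cells, and Atf3 is dark throughout.

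Pairwise correlations across cells were weak. Spearman's rho over the 36 pairs of the 9 genes with reads ran from -0.17 to 0.28 in mature mast cells (median 0.017) and from -0.17 to 0.23 in BMCPs (median 0.034). Within the first and second runs of columns the medians were -0.031 and -0.020 among mature mast cells, and -0.049 and 0.0086 among BMCPs, so 3 of the 4 were below 0. The median over all pairs of genes that reached 5 CPM in at least 1 group was 0.003 and 0.004. A rho of 0.2 or more was reached by 3 of 36 pairs in each group, against 3.85% of all gene pairs in mature mast cells and 4.41% in BMCPs. Below 0 lay 16 pairs among mature mast cells and 14 among BMCPs. The points are cells of 1 pooled sample that share a sequencing lane and differ in depth, so these values are descriptions, and with counts this sparse a rho near 0.2 is no finding.
The pair most often on together was Jun and Junb in BMCPs, at 33 of 93 cells (rho 0.22). Junb was on in 63.5% (48.96 to 76.4) of the 52 BMCPs with Jun on and in 46.3% (30.7 to 62.6) of the 41 with Jun off, with overlapping intervals. In mature mast cells Junb was on in 31.8% (13.9 to 54.9) of the 22 cells with Jun on and in 43.1% (31.4 to 55.3) of the 72 with Jun off (rho -0.11). Fosb and Jun had the highest rho of BMCPs (0.23), with Jun on in 11 of 14 cells with Fosb on (78.6%, 49.2 to 95.3) and in 41 of 79 without (51.9%, 40.4 to 63.3). Fos was on with Jun in 10 of its 15 BMCPs and with Junb in 10, and with Ier2 in 4. In the 78 BMCPs with Fos off, Jun was on in 42, Junb in 42 and Ier2 in 35. The highest value in mature mast cells was that of Egr1 and Ier2 (0.28), which rested on 5 cells with Egr1 on, 3 of them with Ier2 on.

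**Figure D5:**
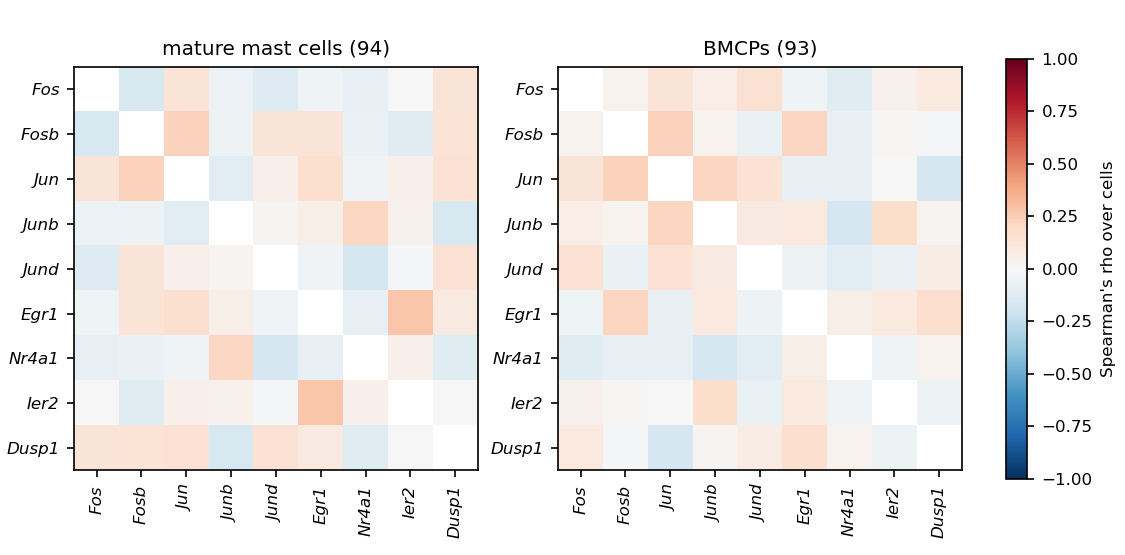
Spearman's rho over cells for each pair of the 9 genes with reads, in mature mast cells (left, 94) and BMCPs (right, 93), on a colour scale from -1 (blue) to 1 (red); the diagonal is blank. All squares are pale, since the values lie between -0.17 and 0.28.

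The 4 BMCPs with 5 or more genes on did not share a single set. BMCP 69 had 6 on: Egr1 at 3260 CPM, Dusp1 at 1497 CPM, Jun at 1448 CPM, Fos at 711 CPM, Junb at 483 CPM and Ier2 at 164 CPM. BMCP 56 had Fos, Jun, Junb, Egr1 and Dusp1 on, BMCP 68 had Fosb, Jun, Junb, Egr1 and Ier2 on, and BMCP 70 had Fos, Fosb, Jun, Junb and Ier2 on. Jun and Junb were thus on in all 4, and Nr4a1, Jund and Atf3 in none. All 4 cells were in the second run of columns, and none was BMCP 44, 46, 53 or 80. The labels 68, 69 and 70 are consecutive numbers, but their columns are not adjacent. The B cell gene Ighm was at 435 CPM in BMCP 56 and 1051 CPM in BMCP 70 with Cd74 at 0 in both. Itga2, a basophil list gene also found in BMCP 53, was at 241 CPM in BMCP 56 and 278 CPM in BMCP 68. The part of such RNA in the result was not tested. Their gene reads (1043929 to 1137910) were below the group's median of 1247890.
These cells also differed in chemokine genes and in stage markers. BMCP 69 had the highest Ccl2 (11289 CPM) and Ccl4 (5756 CPM) of all BMCPs, and BMCP 68 the highest Ccl3 (1923 CPM), whereas BMCP 56 had Ccl2 at 307 CPM and Ccl4 at 0. The basophil protease gene Mcpt8 was at 25544 CPM in BMCP 68 and 16485 CPM in BMCP 70, and at 10.4 CPM in BMCP 56. In BMCP 56 the connective tissue mast cell protease gene Mcpt4 was at 17983 CPM and Gzmb at 3.76 CPM. The mature mast cells with 4 genes on were numbers 8 and 19, and mature mast cell 82, which held the most Egr1, had 3 on.

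Within BMCPs, levels were set beside Gzmb, which marks progenitors and was not used to choose the genes. Gzmb was at 100 CPM or more in 60 cells and lower in 33. Jun was on in 58.3% (44.9 to 70.9) of the former and 51.5% (33.5 to 69.2) of the latter, with pooled levels of 587 and 250 CPM. Junb was on in 61.7% (48.2 to 73.9) and 45.5% (28.1 to 63.6), with pooled levels of 296 and 165 CPM. Dusp1 went the other way in share, at 8.33% (2.76 to 18.4) and 27.3% (13.3 to 45.5), and in pooled level, at 58.01 and 71.1 CPM. All of these intervals overlapped. BMCP 69, which had Gzmb at 4068 CPM, held 20.8% of the Dusp1 reads of all BMCPs. The number of genes on had a rho of -0.17 with Gzmb and 0.16 with Mcpt4 over the 93 BMCPs, and of 0.20 with gene reads. It also had a rho of -0.27 with the percentage of reads not aligned, 0.21 with gene reads per ERCC read and -0.18 with the percentage of gene reads on mitochondrial genes, and the part of these in the number was not tested.

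Other genes of the pathway were read from lists of related genes. Of 41 other immediate early genes, 26 reached 5 CPM in at least 1 group, 12 had a log2 ratio of -1 or lower and 2 of 1 or higher, and the median of the 26 was -0.90. Over all genes tested, 19.2% were at -1 or lower and 9.9% at 1 or higher, with a median of -0.25. The most abundant of the list were on in most cells of both groups. Klf6, a zinc finger factor, was on in 79.8% of mature mast cells and 66.7% of BMCPs (log2 ratio -0.43), Zfp36l1, which destabilises AU-rich mRNAs, in 97.9% and 96.8% (-0.18), and Nfkbia, which encodes the NF-κB inhibitor IκBα, in 71.3% and 66.7% (0.054).
Of 14 genes for partners and relatives of AP-1 proteins, 8 had at least 5 CPM, 2 of them with a log2 ratio of -1 or lower and 1 of 1 or higher (median -0.77), beside the same 19.2% and 9.9% of all genes tested. Batf, which pairs with JUN proteins, was on in 34.04% of mature mast cells and 39.8% of BMCPs (log2 ratio -0.84). Atf4, a stress-response factor, was on in 35.1% and 29.03% (-0.027). Maf, a large MAF factor, was on in 2 of 94 mature mast cells and 20 of 93 BMCPs, with a log2 ratio of -4.04.
Of 13 kinases and factors upstream of these genes, 12 had at least 5 CPM, 3 with a log2 ratio of -1 or lower and 1 of 1 or higher (median -0.38), again beside 19.2% and 9.9%. The MAP kinase kinase gene Map2k2 was on in 50.0% of mature mast cells and 27.96% of BMCPs (log2 ratio 0.38). The kinase gene Mapk14, for a p38 kinase, had a log2 ratio of -0.22.

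The genes whose level followed the 10 most closely over cells were ranked by Spearman's rho with their mean log2(CPM + 1). In BMCPs, over 93 cells and 5412 genes, they were Vwa5a (0.42), Gm9847 (0.40), Lcp2 (0.40), Socs2 (0.37) and Cemip2 (0.36). In mature mast cells, over 94 cells and 5548 genes, they were Zfand3 (0.36), Ppp2ca (0.36), Srsf3 (0.34), Get4 (0.33) and Slc16a1 (0.33). The named genes differed between the groups. Gm9847 has the name of a predicted gene, and whether it shares reads with a near-identical copy was not tested. A rho of 0.3 or more was reached by 22 genes (0.407%) in BMCPs and 13 (0.234%) in mature mast cells, and with so many genes ranked these values describe the top of a list.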

How the data were processed

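Single peritoneal cells were profiled as amplified poly(A) cDNA with ERCC spike-in RNA, and read from an end for 50 bp in a shared lane, per the labels' protocols. The deposited table holds raw read counts per gene and cell, which the authors made with GSNAP 2015-09-29 and HTSeq 0.5.3p3 on mm10, per the submitters' processing notes. The annotation release and strand setting are not given in the sources used here. ERCC rows and HTSeq's rows of unassigned reads (the latter hold 31.6% of all reads of kept cells) were left out of totals.

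Symbols and coordinates came from GENCODE M21 on GRCm38, the assembly of mm10, and matched 98.0% of gene rows. Promoters came from RefSeq. Cells with at least 100000 gene reads were kept. CPM was computed over gene reads, pooled CPM from reads summed over cells, and log2 ratios after adding 1 CPM. Shares have exact Clopper-Pearson intervals and pooled levels exact Poisson intervals. Doublets were not called, since wells were sorted to hold single cells. No 2 cells had identical counts. Atf3 had no reads, so 36 pairs were used where 45 had been planned. Symbols Cyr61 and Mkl1 were matched through RefSeq synonyms.

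The genes and lists were chosen with earlier results of these data known. Beyond the 10 genes, the rule named the 3 most abundant genes of each related list and the 5 most correlated genes per group, and other names were chosen after their values were seen. A gene that the rule names is not reported here. Alternatives were other scalings (TMM from edgeR 4.0.16, ERCC reads, totals without granule genes), pseudocounts, thresholds for on, read minimums, thinning to 100000 reads and left-out cells. The runs of columns and the removal of 4 BMCPs were chosen after the data were seen. Scripts used Python 3.11.15 (pandas 2.3.3, numpy 2.4.6, scipy 1.17.1) and R 4.3.3, and were tested on simulated data.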

Additional observations from a re-analysis of the deposited data

How the results depend on the processing

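With 93 and 94 cells, shares have wide intervals, and mice cannot be told apart. The median log2 ratio of the 9 genes with reads (-0.98) was -0.73 with TMM, -0.081 with ERCC scaling, -0.29 with ERCC scaling without BMCP 55, -0.78 with totals without granule genes, -0.85 as a mean of per-cell CPM, -0.83 with a pseudocount of 10 CPM, -0.69 in the second run of columns and -1.05 without the 4 BMCPs. Scaling moved the median of all genes by 0.25 with TMM, 0.92 and 0.73 with ERCC reads and 0.21 without granule genes. The log2 ratio of Dusp1 (-0.07) changed sign to 0.17 with TMM, 0.83 with ERCC scaling, 0.62 with ERCC scaling without BMCP 55, 0.13 without granule genes, 0.0085 with at least 500000 reads and 0.95 in the first run. That of Ier2 was 0.10 with ERCC scaling. BMCPs with 5 or more genes on (4.30%) were 0 at an on level of 1000 CPM, 0 in the first run, 33.3% with 3 or more genes and 0 with 7 or more. They were 8.60% at an on level of 10 CPM and 8.70% in the second run, and both of these are counted below as within tolerance. The mature share with 3 or more was 18.1%. The median rho in BMCPs was -0.049 in the first run. That of mature mast cells (0.017) fell below 0, to -0.0079 with Pearson's r and -0.010 with thinned reads. The cause was not tested for the values within runs of columns. The number of genes at least 2-fold higher in BMCPs (4) stayed between 3 and 5. Of the main values recomputed, 48 stayed within their tolerance and 14 moved. Of the values for single genes, 150 stayed, 104 moved and 7 changed sign. No paired analysis was possible because the numbers of cells name no mouse and no test was made.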

Other observations

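Cytokine and chemokine genes, which follow AP-1 in stimulated mast cells, were read beside the 10 genes. Of a list of 10, 6 reached 5 CPM in at least 1 group, 3 had a log2 ratio of -1 or lower and 0 had 1 or higher, beside 19.2% and 9.9% of all genes tested. Ccl2, a monocyte chemokine gene, was on in 86.2% of mature mast cells and 78.5% of BMCPs (log2 ratio -0.83), Tnf in 30.9% and 18.3% (0.21) and Il4 in 28.7% and 37.6% (-0.71). Outside the naming rule, and chosen after their values were seen, Ccl3, Ccl4 and Il6 were on in 17, 22 and 19 of 93 BMCPs and in 0, 0 and 2 of 94 mature mast cells. Among the 6 BMCPs with Egr1 on, Ccl4 was on in 3 (50.0%, 11.8 to 88.2), against 19 of 87 others (21.8%, 13.7 to 32.0). Among the 39 BMCPs with Ier2 on, Ccl2 was on in 89.7% (75.8 to 97.1), against 70.4% (56.4 to 82.02) of the 54 others. Both pairs of intervals overlapped. Among the 14 BMCPs with Fosb on, Ccl3 was on in 7 (50.0%, 23.04 to 76.96), against 10 of the 79 others (12.7%, 6.24 to 22.05), and these intervals did not overlap. This combination was named after its values were seen, and of the 49 combinations computed in each group it was the 1 in BMCPs whose intervals did not overlap, with 0 in mature mast cells.

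Heat shock genes, which rise with stress, were a further list. Of 11, 9 had at least 5 CPM, 1 had a log2 ratio of -1 or lower and 0 had 1 or higher (median -0.31), beside 19.2% and 9.9% of all genes tested. Hsp90ab1 was on in 96.8% of mature mast cells and 87.1% of BMCPs, Dnajb1 in 50.0% and 32.3% and Hspa8 in 29.8% and 35.5%. Over cells, the summed CPM of the list had a rho of -0.21 with the mean level of the 10 genes in mature mast cells and -0.073 in BMCPs.

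Several other immediate early genes, named after their values were seen, differed between the groups. Btg2, an antiproliferative gene, had a pooled level of 19.5 CPM in BMCPs and 0.0252 CPM in mature mast cells, with 6 and 0 cells on. Its highest BMCP (540 CPM) was number 80, which carried B cell genes, and the part of such RNA in the Btg2 level was not tested. Csrnp1 stood at 22.0 CPM in BMCPs and 0.555 CPM in mature mast cells, also with 6 and 0 cells on. Gadd45b, a stress-response gene, went the other way, at 1.68 CPM in BMCPs and 15.1 CPM in mature mast cells. Ier3 was on in 63.4% of BMCPs and 43.6% of mature mast cells (log2 ratio -1.61).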
